A study of Mus musculus with 16 samples.

Results

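The genes described here are 34 genes of sterol and fatty acid synthesis in mouse embryonic stem (ES) cells, of 23420 genes in the count files. They were listed by their place in the pathway, with earlier results of these data known. Shares of all tested genes set beside their counts below therefore describe the list and do not test it. The list holds 19 genes of the sterol branch, which leads from acetyl-CoA through mevalonate and squalene to cholesterol, 10 genes of the fatty acid branch, 4 genes that control the pathway through SREBP (sterol regulatory element-binding protein), and Stard4, a carrier of cholesterol inside the cell. All 34 had enough counts to be tested, and Msmo1 stands in the files under its older symbol Sc4mol.

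The study asked whether endogenous retroviruses act as enhancers, and used J1 ES cells of the 129S4/SvJae background in which such elements can be switched on. Cells of all 4 groups, controls included, carried a transgene with dCas9-VPR, a Cas9 that cannot cut joined to domains that activate transcription, together with a guide RNA against the retroviral repeat family RLTR10B2 and a DsRed marker. The sources used here do not say whether the cells were a single clone. Dox + A-MYB cells received doxycycline (Dox, 1 µg/ml) and expressed A-MYB, the product of Mybl1 and a regulator of male meiosis. Dox cells received doxycycline without A-MYB, A-MYB cells expressed A-MYB without doxycycline, and control cells had neither. All were at passage 36 and were collected on day 3, from gelatin-coated wells without feeder cells, in medium with serum, the inhibitors PD0325901 and CHIR99021, and leukaemia inhibitory factor at 1300 U/ml. Each group had 2 libraries, each from RNA of a culture well. No group received Dox without the activator, so the drug and the activator cannot be told apart in any Dox comparison. Nothing in the labels says that the wells were separate cultures, so p-values measure only the spread between these samples, which may be technical.

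Cholesterol and fatty acids are both built from acetyl-CoA in the cytosol, and the genes of both routes share a control system. SREBP-2 and SREBP-1, encoded by Srebf2 and Srebf1, are made as precursors in the membrane of the endoplasmic reticulum, where Insig proteins hold them back with Scap while sterol is plentiful. When sterol is scarce, Scap escorts them to the Golgi, where they are cut, and the freed part enters the nucleus and binds sterol regulatory elements (SREs) in promoters, usually beside sites for NF-Y (CCAAT) and Sp1 (GC boxes). SREBP-2 acts mainly on sterol genes and SREBP-1 mainly on fatty acid genes, and both also raise Insig1. The measurement here is of messenger RNA, not of the cut proteins, sterols or lipids.

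Gene counts per library ran from 26995317 to 33771487. Levels are CPM, counts scaled to a common library size, here adjusted by the trimmed mean of M values (TMM). Mybl1, the check of the A-MYB label, was at 18.3 ± 2.32 CPM in Dox + A-MYB cells, 10.6 ± 0.581 CPM in Dox cells, 19.9 ± 2.96 CPM in A-MYB cells and 7.65 ± 1.04 CPM in control cells (mean ± SD, n = 2 each). The Dox + A-MYB libraries stood apart on the first principal component, which held 64.1% of the variance, and more genes had a count there (17578 ± 33.9, against 16079.5 ± 74.2 in control cells). All 12 listed markers of naive ES cells were over 1 CPM in every group. Their summed level was 4815 to 5097 CPM in Dox + A-MYB cells, 8056 to 8085 CPM in Dox cells, 7398 to 7575 CPM in A-MYB cells and 7777 to 7900 CPM in control cells. In Dox + A-MYB against control cells 11 of the 12 were lower, against 30.4% of all tested genes lower and 33.5% higher. The other, Dppa3, was higher (72.1 against 17.1 CPM). Summed markers of primitive endoderm were at 74.6 to 79.4 CPM in Dox + A-MYB cells and 99.8 to 103.5 CPM in control cells, mostly Lama1. Of the 6 that could be tested, Lama1 was lower in Dox + A-MYB than in control cells and 3 were higher, Dab2 (8.25 against 1.19 CPM), Gata4 (7.52 against 4.97 CPM) and Pdgfra (1.41 against 0.411 CPM), with a median log2 fold change of 0.66, and Gata6, Sox17 and Sox7 were under 1 CPM in every group. Summed markers of fibroblasts, mostly Vim, were at 70.8 to 75.4 CPM in Dox + A-MYB cells and 280.0 to 285.6 CPM in control cells (4 of 5 tested lower and Col3a1 higher), with Dcn, Lum, Postn and Twist2 at or near 0. The part of these shifts in the results below was not tested. In such bulk libraries, fewer cells of a type and less RNA per cell cannot be told apart.

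RefSeq's table for GRCm38.p6 (mm10) gave a promoter window, 250 bases before to 50 bases after a start, for 27 of the 34 genes. Of these, 4 are printed because they stand for what moved: Hmgcs1 and Msmo1, sterol genes among the lowest in Dox + A-MYB cells, Fasn, the central fatty acid gene, and Ggps1, a sterol branch gene that was higher there. The windows are chr13:119690101-119690400 on the plus strand for Hmgcs1, and on the minus strand chr8:64733529-64733828 for Msmo1, chr11:120824498-120824797 for Fasn and chr13:14063439-14063738 for Ggps1. Each is written 5′ to 3′ along the gene's own strand, and capitals mark the letters TCACNCCAC (an SRE) and CCAAT, or its reverse complement ATTGG.
Hmgcs1: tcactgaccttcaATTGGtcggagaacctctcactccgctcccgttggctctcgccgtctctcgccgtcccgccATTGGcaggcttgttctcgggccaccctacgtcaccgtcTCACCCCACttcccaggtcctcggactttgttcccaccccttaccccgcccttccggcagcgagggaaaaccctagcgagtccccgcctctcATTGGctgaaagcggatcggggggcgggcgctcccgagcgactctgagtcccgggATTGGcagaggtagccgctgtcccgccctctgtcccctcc
Msmo1: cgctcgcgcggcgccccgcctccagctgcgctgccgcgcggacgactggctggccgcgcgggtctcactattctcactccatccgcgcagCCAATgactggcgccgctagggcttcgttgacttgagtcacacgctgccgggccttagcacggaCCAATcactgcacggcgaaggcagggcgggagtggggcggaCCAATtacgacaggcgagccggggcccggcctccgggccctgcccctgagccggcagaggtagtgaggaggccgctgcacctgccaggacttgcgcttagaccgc
Fasn: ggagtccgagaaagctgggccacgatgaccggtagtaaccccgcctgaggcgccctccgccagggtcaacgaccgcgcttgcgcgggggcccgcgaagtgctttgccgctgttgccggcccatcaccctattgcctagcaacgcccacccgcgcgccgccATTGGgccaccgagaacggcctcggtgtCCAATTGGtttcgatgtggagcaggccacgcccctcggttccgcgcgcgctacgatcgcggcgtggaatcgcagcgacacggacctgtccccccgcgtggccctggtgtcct
Ggps1: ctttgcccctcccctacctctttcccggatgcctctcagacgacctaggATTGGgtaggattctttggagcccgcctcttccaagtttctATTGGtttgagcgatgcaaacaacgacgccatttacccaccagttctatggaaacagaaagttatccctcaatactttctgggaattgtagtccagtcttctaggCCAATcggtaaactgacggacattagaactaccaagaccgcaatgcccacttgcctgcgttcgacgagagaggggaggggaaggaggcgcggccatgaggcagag
In the Hmgcs1 window the SRE letters TCACCCCAC begin 137 bases before the start, and ATTGG occurs 4 times. The printed Fasn window has ATTGG and CCAAT sharing 2 bases in the run CCAATTGG, and no SRE letters. That window lies inside the annotated gene (chr11:120805958-120825166), so bases before the gene's outer 5′ end were not searched. Ggps1, which moved the other way, has the CCAAT letters 3 times.

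Across the windows, CCAAT on either strand was present in 22 of 27 listed genes (81.5%), against 43.1% of the 10724 tested genes that have a window. By branch it was present in 15 of 16 sterol genes with a window (93.8%) and in 4 of 7 such fatty acid genes (57.1%). The SRE letters TCACNCCAC, searched on both strands, were in the Hmgcs1 window alone, against 1.45% of tested genes. The GC box GGGCGG was in 22 of 27 listed genes (81.5%), against 67.6% of tested genes. The E-box CACGTG was in 5 of 27 (18.5%), namely Hsd17b7, Sc5d, Dhcr7, Scap and Insig1, against 11.7%. The MYB letters AACTGNC were in 3 of 27 (11.1%), namely Ggps1, Ebp and Acaca, against 13.2%. These are matches of letters in these windows and not measured sites. Some genes have several windows, and a gene counts once if any of its windows holds the letters. For Fasn, Acaca and Srebf1 every window lies inside the annotated gene, so bases before its outer 5′ end were not searched.

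The pathway was at its lowest in Dox + A-MYB cells, and both branches took part. Relative to control cells, 30 of the 34 genes were lower there, 1 was higher and 3 did not pass, against 30.4% of all tested genes lower and 33.5% higher (edgeR's quasi-likelihood test, Benjamini-Hochberg adjusted p under 0.05 over 14664 genes). Of the 30, 19 were lower by at least 2-fold, against 936 of all 14664 tested genes. The sterol branch had 17 of 19 genes lower, the fatty acid branch 9 of 10 and the control genes 3 of 4, and Stard4 was lower too. Scaling to total counts moved the median of all genes from 0.05 to 0.28 on the log2 scale and the split of all genes to 2796 lower and 6946 higher, and the listed genes then stood at 27 lower and 2 higher, with the calls of Pmvk, Ebp and Sc5d lost.

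**Figure D1:**
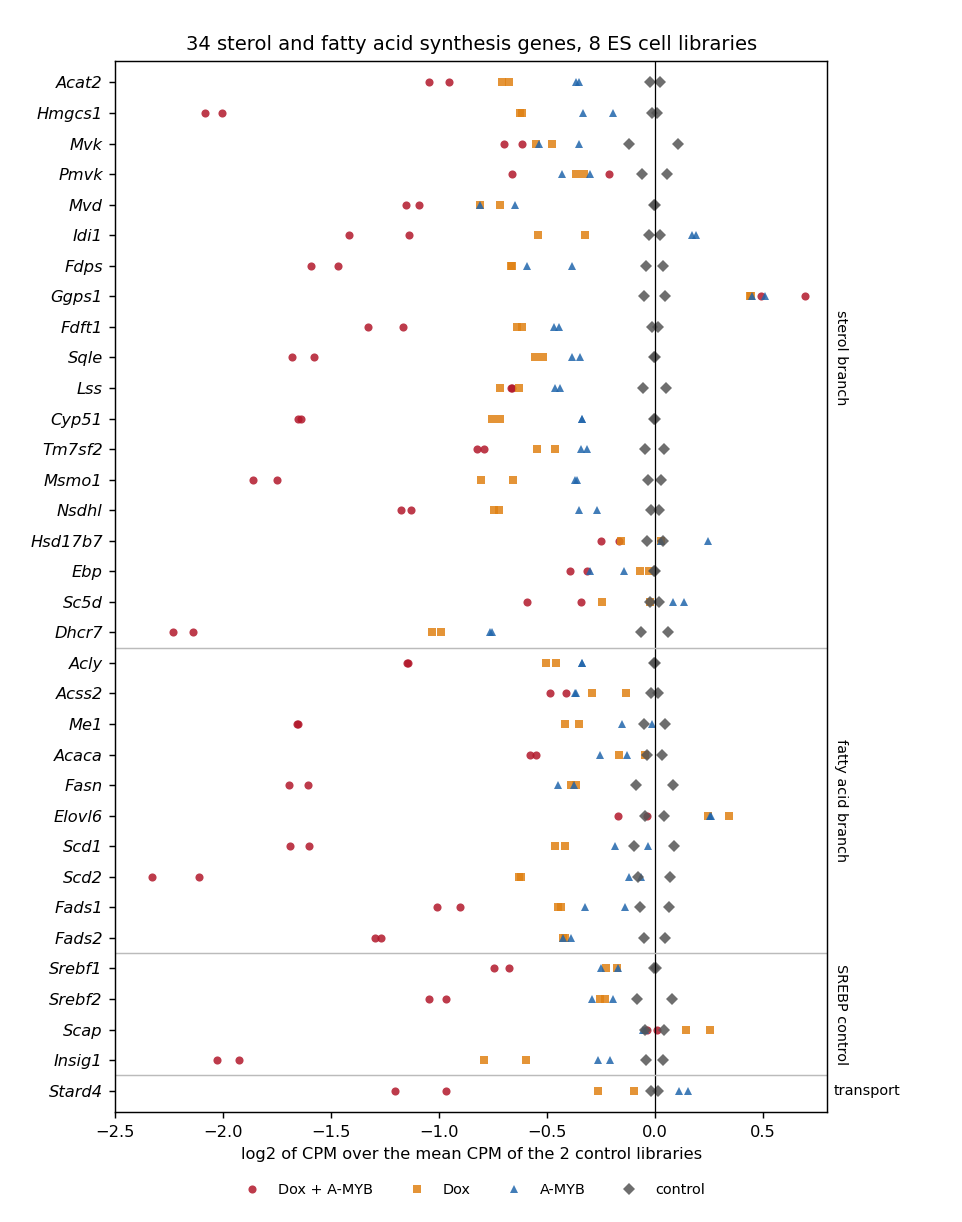
Level of each of the 34 genes in each of the 8 ES cell libraries, as log2 of its CPM over the mean CPM of the 2 control libraries (x axis, no error bars; each point is a library), with genes ordered by role down the page and groups marked by colour and shape. The Dox + A-MYB points lie left of all others in 29 of the 34 genes, while Ggps1 lies to the right of control in every treated group.

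In 29 of the 34 genes both Dox + A-MYB libraries lay below the other 6 libraries, against 27.1% of all tested genes. The 5 exceptions were Pmvk, Ggps1, Lss, Elovl6 and Scap. The mean level was lowest in Dox + A-MYB cells for 31 genes and highest in control cells for 27. In 20 genes the means followed the order Dox + A-MYB, Dox, A-MYB, control, from low to high. These orders of means were not counted over all tested genes.

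Of the mevalonate steps, the condensing enzyme Hmgcs1 (HMG-CoA synthase; gene 208715, chr13:119690351-119708260) had the largest decrease in Dox + A-MYB cells. The level of Hmgcs1 was 76.7 and 72.6 CPM in the Dox + A-MYB libraries, 201 and 199.9 CPM in the Dox libraries, 269.9 and 245 CPM in the A-MYB libraries and 306 and 311 CPM in the control libraries. Both Dox + A-MYB libraries lay under every other library, and the A-MYB and control libraries did not overlap either. Against control cells its log2 fold change was -2.05 ± 0.063 in Dox + A-MYB cells (adjusted p = 2.81e-19), with -0.62 in Dox cells and -0.26 in A-MYB cells.

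The other mevalonate steps moved less evenly. Acat2, the cytosolic thiolase that makes acetoacetyl-CoA, fell by 1.00 on the log2 scale in Dox + A-MYB against control cells, and Mvk and Pmvk, the successive kinases of mevalonate, by 0.66 and 0.42. Acat2 has a near copy, Acat3, on the same chromosome, and the counting could have split reads between them. Mvd, the decarboxylase that forms the isoprene unit, was already low with either treatment. Mvd in Dox + A-MYB cells stood at 47.6 and 49.5 CPM, in Dox cells at 64.3 and 60.3 CPM, in A-MYB cells at 60.3 and 67.5 CPM and in control cells at 106 and 106 CPM. The Dox and A-MYB libraries overlapped with each other and lay between the Dox + A-MYB and the control libraries. Its log2 fold changes were -0.73 ± 0.075 in A-MYB cells (adjusted p = 1.23e-07), -0.76 in Dox cells and -1.12 in Dox + A-MYB cells, each against control.

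Idi1, the isomerase that makes the reactive isoprene unit, moved differently with A-MYB alone. Idi1 had 16.5 and 13.6 CPM in Dox + A-MYB cells, 29.1 and 25.0 CPM in Dox cells, 41.6 and 41.0 CPM in A-MYB cells and 35.8 and 37.0 CPM in control cells. The A-MYB libraries were the highest of all 8, though their difference from control did not pass (log2 fold change 0.18, adjusted p = 0.158). With Dox in A-MYB cells, Idi1 was lower by a log2 fold change of -1.45 ± 0.10 (adjusted p = 1.05e-11). Fdps, which joins isoprene units into farnesyl diphosphate at the fork to sterols, dolichol and ubiquinone, fell by 1.53 on the log2 scale in Dox + A-MYB against control cells.

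Ggps1 (gene 14593, chr13:14049790-14063566), which draws farnesyl diphosphate away from sterols to make the geranylgeranyl groups attached to proteins, was the sterol branch gene that moved upwards. The level of Ggps1 was 35.3 and 30.6 CPM in the Dox + A-MYB libraries, 29.7 and 29.5 CPM in the Dox libraries, 29.7 and 31.0 CPM in the A-MYB libraries and 21.0 and 22.5 CPM in the control libraries. All 6 treated libraries lay above both control libraries, while the 3 treated groups lay close together. Its log2 fold change against control was 0.60 ± 0.10 in Dox + A-MYB cells (adjusted p = 5.64e-06), 0.44 ± 0.10 in Dox cells (adjusted p = 0.000987) and 0.48 ± 0.10 in A-MYB cells (adjusted p = 0.000379).

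The squalene steps fell together except at the ring closure. Fdft1, squalene synthase, fell by 1.25 and Sqle, squalene epoxidase, by 1.63 on the log2 scale in Dox + A-MYB against control cells. Fdft1 overlaps the gene Ctsb in the annotation, and the sources used here do not give the strand setting of the counting. Lss, which closes the rings to give lanosterol, did not follow them. Lss in Dox + A-MYB cells stood at 74.3 and 74.2 CPM, in Dox cells at 71.4 and 76.0 CPM, in A-MYB cells at 86.6 and 85.3 CPM and in control cells at 113 and 122 CPM. The Dox + A-MYB libraries lay within the range of the Dox libraries, and every treated library lay below control. Lss was thus lower than in control cells in Dox cells (log2 fold change -0.67 ± 0.069, adjusted p = 5.89e-08) and in Dox + A-MYB cells (-0.66). Dox + A-MYB cells against Dox cells gave 0.011 with an adjusted p of 0.908. Under total counts Lss passed there as higher in Dox + A-MYB cells (0.20, adjusted p = 0.0174).

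After lanosterol, the decreases in Dox + A-MYB against control cells were largest for Dhcr7, Msmo1 and Cyp51. Dhcr7 (gene 13360, chr7:143823167-143848410), the reductase of the last step to cholesterol, had the largest decrease of the sterol branch against control in each treated group. Dhcr7 had 26.3 and 24.7 CPM in Dox + A-MYB cells, 56.6 and 58.3 CPM in Dox cells, 68.2 and 68.8 CPM in A-MYB cells and 111 and 121 CPM in control cells. The 4 groups did not overlap anywhere along this order. Its log2 fold change was -2.18 ± 0.078 in Dox + A-MYB cells (adjusted p = 4.51e-18), -1.01 ± 0.074 in Dox cells (adjusted p = 1.85e-10) and -0.76 ± 0.073 in A-MYB cells (adjusted p = 4.67e-08), all against control cells.

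Msmo1 (a sterol methyl oxidase), Cyp51 (the demethylase acting on lanosterol) and Nsdhl (the decarboxylase that follows Msmo1) fell by 1.81, 1.65 and 1.15 on the log2 scale in Dox + A-MYB against control cells. The reductase Tm7sf2, whose gene overlaps Vps51, fell by 0.81. The sterol isomerase Ebp fell by 0.35 and the desaturase Sc5d by 0.46. Hsd17b7, the ketoreductase that acts with Msmo1 and Nsdhl in demethylation, was the sterol branch gene with no pass in that comparison, at -0.21 with an adjusted p of 0.119. Members of the same stretch, Msmo1 and Hsd17b7 among them, thus differed widely in the size of their log2 change.

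In the fatty acid branch Scd2, Me1, Fasn and Scd1 had the largest decreases in Dox + A-MYB against control cells. Scd2 (gene 20250, chr19:44293676-44306864), which puts the double bond into saturated fatty acids and has several related copies in the mouse, had the largest decrease of all 34 genes. The level of Scd2 was 317 and 272 CPM in the Dox + A-MYB libraries, 891 and 884 CPM in the Dox libraries, 1308 and 1257 CPM in the A-MYB libraries and 1298 and 1437 CPM in the control libraries. The A-MYB libraries overlapped with the control libraries, the Dox libraries lay below both, and the Dox + A-MYB libraries were far below all others. Its log2 fold change was -2.12 ± 0.068 with Dox in A-MYB cells (adjusted p = 9.11e-18) and -2.22 ± 0.069 in Dox + A-MYB against control cells (adjusted p = 1.88e-18). A-MYB alone gave -0.093, with an adjusted p of 0.294. Scd1, a related copy of Scd2 with which reads could be shared, fell by 1.65 in Dox + A-MYB against control cells.

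Fasn, the synthase that builds palmitate, was lower in all 3 treated groups. Fasn in Dox + A-MYB cells stood at 259 and 244 CPM, in Dox cells at 602 and 613 CPM, in A-MYB cells at 608 and 578 CPM and in control cells at 742 and 835 CPM. The Dox and A-MYB libraries overlapped with each other and lay below control, and the Dox + A-MYB libraries lay below all of them. Its log2 fold change in Dox + A-MYB cells against control cells was -1.65 ± 0.062 (adjusted p = 1.16e-17), and it was the fatty acid gene with the largest decrease in A-MYB cells, -0.41 ± 0.060 (adjusted p = 1.11e-05).

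Of the enzymes that supply the pathway, Me1 (malic enzyme, a source of NADPH) fell by 1.66 and Acly, which splits citrate into cytosolic acetyl-CoA, by 1.15 on the log2 scale in Dox + A-MYB against control cells. Acss2, which makes acetyl-CoA from acetate, fell by 0.45, and Acaca, which carboxylates it to malonyl-CoA, by 0.56. Acaca overlaps Tada2a in the annotation. The desaturases of polyunsaturated chains, Fads2 and Fads1, fell by 1.28 and 0.96. Acss2 and Acaca thus had smaller decreases than Acly, Me1, Fasn and both Scd genes.

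Elovl6 (gene 170439, chr3:129532386-129638495), which lengthens palmitate to stearate, moved against its branch. Elovl6 had 214 and 195 CPM in Dox + A-MYB cells, 279 and 261 CPM in Dox cells, 264 and 262 CPM in A-MYB cells and 213 and 227 CPM in control cells. The Dox and A-MYB libraries lay above both control libraries, and the Dox + A-MYB libraries were at or below the control level, with overlap. It was higher in Dox cells than in control cells (log2 fold change 0.30 ± 0.061, adjusted p = 0.000594) and in A-MYB cells than in control cells (0.26 ± 0.061, adjusted p = 0.00173), the second of which was lost when a library was left out. With both treatments it did not pass against control (-0.10, adjusted p = 0.152; 0.13 under total counts, adjusted p = 0.0605).

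Among the control genes, Insig1, the protein that retains the Scap complex in the endoplasmic reticulum, changed most. The level of Insig1 was 28.1 and 26.2 CPM in the Dox + A-MYB libraries, 70.5 and 61.6 CPM in the Dox libraries, 92.4 and 89.0 CPM in the A-MYB libraries and 104 and 109.6 CPM in the control libraries. The 4 groups did not overlap, and each treated library lay below control. Its log2 fold change against control was -1.98 ± 0.081 in Dox + A-MYB cells (adjusted p = 6.56e-17), -0.69 ± 0.076 in Dox cells (adjusted p = 1.85e-07) and -0.23 ± 0.076 in A-MYB cells (adjusted p = 0.018), which was lost when a library was left out.

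Both SREBP genes were lower too. Srebf2 in Dox + A-MYB cells stood at 154 and 146 CPM, in Dox cells at 257 and 253 CPM, in A-MYB cells at 246 and 264 CPM and in control cells at 285 and 318 CPM. Srebf1 had 88.1 and 84.0 CPM in Dox + A-MYB cells, 125 and 120.3 CPM in Dox cells, 118 and 125 CPM in A-MYB cells and 140.3 and 141 CPM in control cells. For both genes the Dox and A-MYB libraries overlapped with each other, lay below control and above Dox + A-MYB. In Dox + A-MYB against control cells the log2 fold change was -1.01 ± 0.063 for Srebf2 (adjusted p = 3.84e-13) and -0.71 ± 0.064 for Srebf1 (adjusted p = 4.19e-10). With single treatments it was -0.24 (Dox) and -0.24 (A-MYB) for Srebf2 and -0.20 (Dox) and -0.21 (A-MYB) for Srebf1, with adjusted p-values of 0.00397, 0.00354, 0.0164 and 0.0119 in that order. All of these single-treatment calls for the SREBP genes were lost when certain single libraries were left out. Srebf1 overlaps Rai1 in the annotation.

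Scap, the escort of the SREBPs, did not follow them. The level of Scap was 55.8 and 54.1 CPM in the Dox + A-MYB libraries, 61.3 and 66.1 CPM in the Dox libraries, 53.7 and 53.3 CPM in the A-MYB libraries and 53.7 and 57.2 CPM in the control libraries. The Dox libraries were the highest, and the Dox + A-MYB and the A-MYB libraries each overlapped with control but not with each other. Scap was higher in Dox cells than in control cells (log2 fold change 0.20 ± 0.076, adjusted p = 0.0453), a call that was lost when single libraries were left out and under DESeq2's size factors (adjusted p = 0.0879), and in Dox + A-MYB against control cells it was at -0.011 (adjusted p = 0.907; 0.22 under total counts, adjusted p = 0.0136). Stard4, which carries cholesterol between membranes, had 30.9 and 26.3 CPM in Dox + A-MYB cells, 56.5 and 50.5 CPM in Dox cells, 65.3 and 67.2 CPM in A-MYB cells and 59.7 and 61.2 CPM in control cells. The Dox + A-MYB libraries lay below the rest, with a log2 fold change of -1.08 ± 0.087 against control cells (adjusted p = 5.65e-11).

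**Figure D2:**
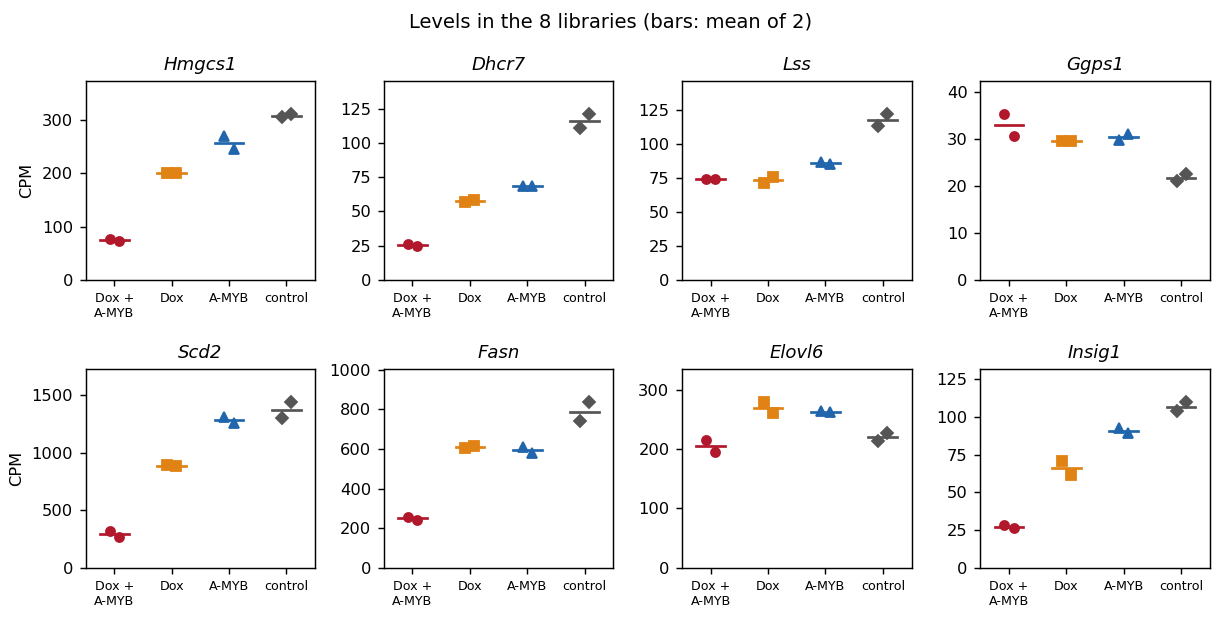
CPM of selected genes (y axis, from 0) in each library by group (x axis, Dox + A-MYB at the left and control at the right), each point a library and the bar the mean of 2. Hmgcs1, Dhcr7, Scd2 and Insig1 are at their lowest in Dox + A-MYB cells, with means of 74.6, 25.5, 294 and 27.1 CPM, while Ggps1 is higher in all 3 treated groups than in control.

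Given alone, each treatment lowered most sterol genes and at least 5 of the 10 fatty acid genes. With Dox alone, 25 of the 34 genes were lower than in control cells, 3 were higher (Ggps1, Elovl6 and Scap) and 6 did not pass, against 14.3% of all tested genes lower and 17.9% higher. By branch, 15 of 19 sterol genes and 7 of 10 fatty acid genes were lower. With A-MYB alone, 22 were lower, 2 were higher (Ggps1 and Elovl6) and 10 did not pass, against 15.2% lower and 19.5% higher of all tested genes. Here 14 of 19 sterol genes and 5 of 10 fatty acid genes were lower. Dox cells and A-MYB cells are both set against the same control libraries, so these 2 sets of calls are not independent.

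The median log2 fold change against control was -0.62 for the sterol branch and -0.40 for the fatty acid branch in Dox cells, and -0.36 and -0.21 for the same branches in A-MYB cells. All tested genes had medians of 0.03 in Dox cells and -0.0047 in A-MYB cells. Dhcr7 had the largest sterol decrease with either treatment, and of the fatty acid genes Scd2 had the largest with Dox and Fasn with A-MYB. Scd1, Scd2 and Me1, which fell with Dox, gave -0.10, -0.093 and -0.079 with A-MYB alone and did not pass.

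Set directly against A-MYB cells, a comparison chosen after seeing the data, Dox cells had 13 of the 34 genes lower and 1 higher, against 6.94% of all tested genes lower and 5.05% higher. The genes lower in Dox cells were 8 sterol genes (Acat2, Hmgcs1, Idi1, Lss, Cyp51, Msmo1, Nsdhl and Dhcr7), 3 fatty acid genes (Me1, Scd1 and Scd2), Insig1 and Stard4, and the gene higher was Scap. Idi1 differed most, at -0.61 ± 0.10 (adjusted p = 0.000162), and Scd2 gave -0.53 ± 0.065 (adjusted p = 6.16e-06). Of the 14 genes, 7 were lost when single libraries were left out. The count fell to 8 without Dox replicate 2 and to 9 without A-MYB replicate 1.

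When the other treatment was already present, each treatment lowered most of the list again. Dox + A-MYB cells had 28 of the 34 genes lower than A-MYB cells and none higher, against 30.4% and 28.5% of all tested genes. Of the 28, 13 were lower by at least 2-fold, against 542 of all 14664 tested genes. The 6 that did not pass were Mvk, Pmvk, Ggps1, Ebp, Acss2 and Scap. The same Dox + A-MYB libraries had 29 genes lower than Dox cells and none higher, against 28.4% and 26.8% of all tested genes. The 5 that did not pass there were Mvk, Pmvk, Ggps1, Lss and Hsd17b7, all of the sterol branch, while all 10 fatty acid genes and all 4 control genes were lower. Both comparisons share the Dox + A-MYB libraries. Under total-count scaling the listed genes stood at 24 lower and 2 higher (Ggps1 and Scap) for Dox in A-MYB cells. For A-MYB in Dox cells they stood at 22 lower and 2 higher (Ggps1 and Lss). All tested genes stood at 2606 lower and 6204 higher in the first and at 2367 lower and 5804 higher in the second.

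Dox with and without A-MYB are comparisons with no library in common. Of the 34 genes, 23 were lower in both, against 9.12% of all tested genes, none was higher in both, and Elovl6 changed in opposite directions. Across the 34 genes the log2 fold changes of these Dox comparisons had a Pearson r of 0.56, a description over genes that share a pathway and libraries. For A-MYB with and without Dox, which also share no library, 19 genes were lower in both, against 9.02% of all tested genes, Elovl6 again changed in opposite directions, and r was 0.16.

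For most of the list the level with both treatments was lower than the sum of the separate log2 changes gives. For Elovl6, which was higher with each treatment alone and did not pass with both, this was not a larger decrease. The interaction, which is the Dox effect with A-MYB minus the Dox effect without it, was below 0 for 21 of the 34 genes and above 0 for 2 (Mvd and Lss), and 11 did not pass, against 24.5% of all tested genes below 0 and 16.4% above. In the fatty acid branch 9 of 10 genes had a negative interaction, all but Acss2, and none had a positive one (6 of 10 negative under total counts, with Acly, Acaca and Fads1 lost). In the sterol branch 8 of 19 were negative, 2 positive and 9 did not pass. Srebf1, Srebf2, Insig1 and Stard4 were negative as well. Under total-count scaling the listed genes stood at 14 lower and 4 higher, and all tested genes at 2291 lower and 3746 higher.

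**Figure D3:**
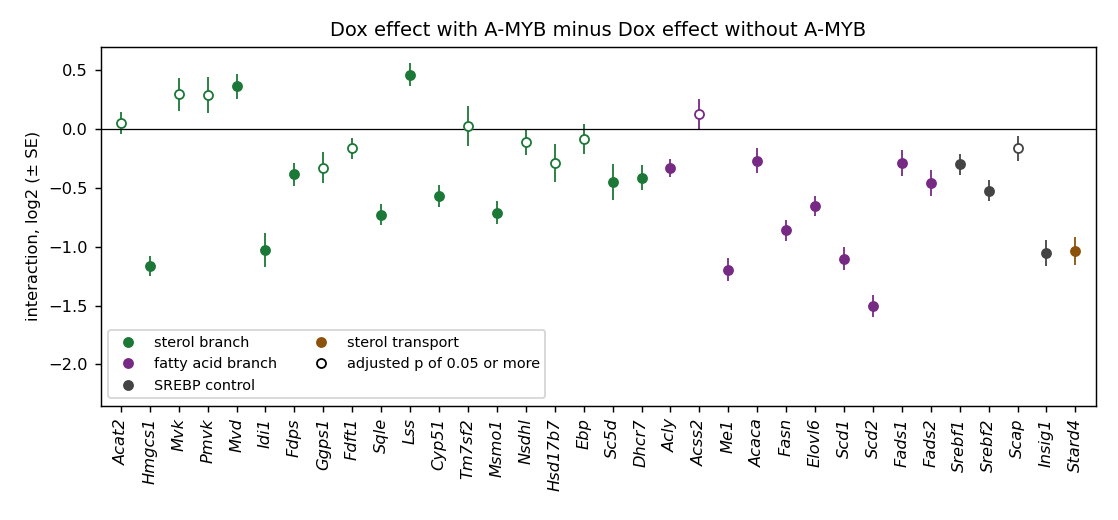
Interaction of Dox and A-MYB for each of the 34 genes (y axis, log2, points with bars of ± 1 SE; x axis, genes by role), where a value below 0 means a lower level with both treatments than the sum of the single log2 changes gives. Filled points had an adjusted p under 0.05 and open points did not; 9 of 10 fatty acid genes are filled and below 0, and Mvd and Lss are filled and above 0.

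Scd2 had the largest interaction, -1.50 ± 0.093 (adjusted p = 3.38e-11), followed by Me1 at -1.19, Hmgcs1 at -1.17, Scd1 at -1.10, Insig1 at -1.05, Stard4 at -1.04 and Idi1 at -1.03. Within the sterol branch, Hmgcs1 (adjusted p = 2.62e-10) and Lss (0.46 ± 0.10, adjusted p = 0.000486) were the ends of the range. For Acat2, Fdft1 and Nsdhl, which were lower in each of the 3 comparisons with control, the interaction was 0.051 ± 0.10, -0.16 ± 0.087 and -0.11 ± 0.11 and did not pass. The same held for Mvk, Pmvk and Tm7sf2, with interactions of 0.30, 0.29 and 0.025. Under total counts Mvk and Pmvk passed, both at 0.46.

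The branches changed places between single and combined treatment. The sterol median minus the fatty acid median of the log2 fold changes was -0.22 for Dox alone and -0.15 for A-MYB alone, against control. It was 0.20 for Dox in A-MYB cells, 0.40 for A-MYB in Dox cells, 0.09 for both treatments against control and 0.27 for the interaction. Between libraries of a group this difference had a pooled SD of 0.0450. By library it was 0.051 and -0.051 in control cells and 0.094 and 0.11 in Dox + A-MYB cells. With any of the 8 libraries left out, it ran from -0.27 to -0.16 for Dox alone, from -0.18 to -0.076 for A-MYB alone, and from 0.064 to 0.12 for both treatments together, keeping its sign in each. Genes of a branch are not replicates, so no test is attached to these medians.

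**Figure D4:**
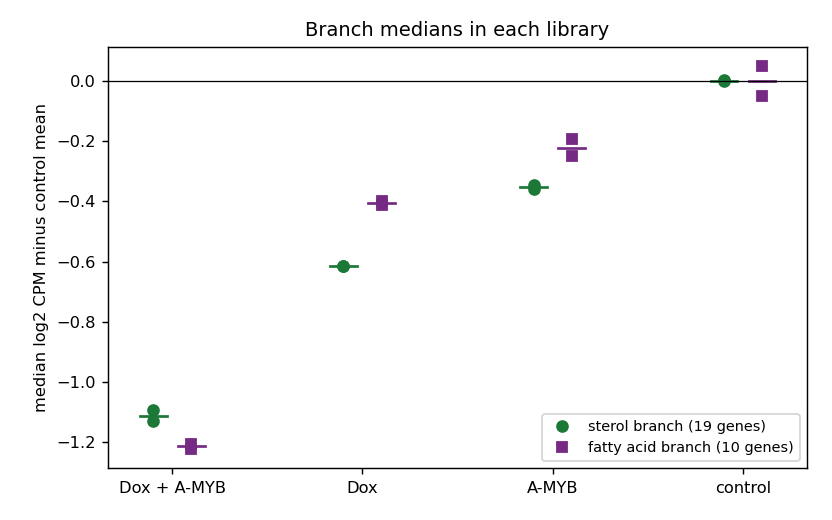
Median over the 19 sterol genes and over the 10 fatty acid genes of log2 CPM relative to the mean of the control libraries (y axis), for each library by group (x axis, Dox + A-MYB at the left); each point is a library. The sterol median lies below the fatty acid median in the Dox and A-MYB libraries and above it in both Dox + A-MYB libraries.

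By library, the median log2 level relative to control was -1.13 and -1.09 for the sterol branch and -1.22 and -1.21 for the fatty acid branch in Dox + A-MYB cells. In Dox cells it was -0.61 and -0.61 for the sterol branch and -0.40 and -0.41 for the fatty acid branch. In A-MYB cells it was -0.36 and -0.35 for the sterol branch and -0.19 and -0.25 for the fatty acid branch. The branches did not overlap within any treated group. Summed over the branch, the sterol genes held 838 ± 4.76 CPM in Dox + A-MYB cells (40.8% of control), 1341 ± 11.5 CPM in Dox cells (65.3%), 1586 ± 8.36 CPM in A-MYB cells (77.3%) and 2052 ± 9.16 CPM in control cells. The fatty acid genes held 1326 ± 60.0 CPM in Dox + A-MYB cells (35.9% of control), 2745 ± 8.51 CPM in Dox cells (74.3%), 3242 ± 86.5 CPM in A-MYB cells (87.8%) and 3694 ± 215 CPM in control cells (mean ± SD, n = 2 each). Most of the counts in the fatty acid sum came from Scd2, Fasn and Acly.

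Genes beside the list moved in part with it. Of 20 further genes of sterol supply and isoprenoid use, 12 were lower in Dox + A-MYB than in control cells, 4 were higher and 4 did not pass, with a median log2 fold change of -0.27, against 30.4% of all tested genes lower and 33.5% higher. Of 24 tested genes of other fatty acid steps (26 listed), 11 were lower, 5 higher and 8 did not pass, with a median of -0.28, beside the same shares of all tested genes. The genes with the smallest p were Slc25a1, the mitochondrial citrate carrier (-1.42, adjusted p = 5.97e-16), Acsl3, an acyl-CoA synthetase (-1.47, adjusted p = 1.38e-14), and Aacs, acetoacetyl-CoA synthetase, which fell by 1.00 (adjusted p = 1.59e-10).

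Against control cells, 7 of the 20 further sterol genes were lower and 3 higher with Dox alone, and 6 were lower and 4 higher with A-MYB alone. Of the 24 other fatty acid genes, 8 were lower and 0 higher with Dox alone, and 4 were lower and 4 higher with A-MYB alone. Of all tested genes, 14.3% were lower and 17.9% higher with Dox alone, and 15.2% were lower and 19.5% higher with A-MYB alone.

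Genes of sterol export and of fatty acid breakdown held calls in both directions in Dox + A-MYB against control cells, as did all tested genes (30.4% lower and 33.5% higher). Of 10 tested genes of the liver X receptor response and sterol export (11 listed), 4 were lower and 5 higher in Dox + A-MYB than in control cells, with a median of 0.35. Cyp27a1, a sterol hydroxylase, had 8.59 and 10.9 CPM in Dox + A-MYB cells and 1.28 and 0.971 CPM in control cells (adjusted p = 8.83e-11). The others with the smallest p were the lipoprotein gene Apoe (-0.80, adjusted p = 1.20e-08) and Nr1h2, which encodes a liver X receptor (-0.62, adjusted p = 1.09e-07). Of 19 tested genes of fatty acid oxidation (20 listed), 7 were lower and 8 higher, with a median of 0.07, and genes among those with the smallest p were Cpt1c (1.30, adjusted p = 3.81e-12) and Hadh (0.70, adjusted p = 2.55e-10). Cpt1c is a carnitine acyltransferase relative and Hadh a mitochondrial dehydrogenase of oxidation.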

How the data were processed

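RNA-seq counts of 8 ES cell libraries in 4 groups of 2 were analysed, together with lists of peaks of histone H3 acetylated at lysine 27 (H3K27ac) from 4 spermatocyte libraries. The deposited ES files list unnormalized counts by gene symbol, and 5 special lines that name no gene were kept out. They held 7.31% (control cells) to 9.11% (Dox + A-MYB cells) of reads in no feature, as group means relative to gene counts and special lines together. Per the submitters' processing notes, the build was mm10 and the tools were HISAT2 2.1.0, HTSeq (no version), MACS 1.4.2, Bowtie2 2.3.3.1 and bcl2fastq 2.20.0. The sources used here do not give their settings, the strand setting among them. Libraries were made with a stranded mRNA kit, per the labels' protocols. The deposited peak lists give a score, the number of tags as counts, and a fold over background for each peak; these are the authors' values, and the sources used here do not say which library served as control. The 4 input libraries were not used here.

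Of 23420 genes, 18917 had a count and 14664 passed edgeR's filterByExpr, all 34 listed genes among them. Counts were TMM-scaled and fitted with edgeR 4.0.16 (glmQLFit, robust; limma 3.58.1, R 4.3.3) with all 4 groups in 1 model, which leaves 4 residual degrees of freedom. Contrasts were tested two-sided with glmQLFTest, Benjamini-Hochberg adjusted over all 14664 genes, at an adjusted p under 0.05. The standard error (SE) of a log2 fold change was taken as its size over the root of its F statistic. CPM are edgeR's, and medians of a branch are over its genes. No library is common to both Dox comparisons or to both A-MYB comparisons, whereas other pairs share a group. DESeq2 1.42.0, other scalings and filters, a replicate block and leaving out each library were tried as alternatives. On simulated data for Dox without A-MYB (14664 genes, of which 14293 passed the filter), the fit recovered 83 of 100 genes changed 2-fold, 76 of 77 with a mean count of at least 50 but 7 of 23 below it, and called 7 of 14100 unchanged genes. A first limit, 40 of 50 recovered in each direction, was missed for lower genes (39) and met for higher ones (44); the limit on genes with at least 50 counts was set after that miss, and the fit was left as it was. Replicates differed by more than sampling noise (5.59 to 14.4 times, as chi-square per degree of freedom). The fit's biological coefficient of variation came to 0.0631.

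The 34 genes and the other lists were chosen with earlier results of these data known. Full values were given to the gene with the largest change per branch and comparison, to genes that moved against their branch and to the 4 control genes; Fasn, Idi1, Stard4 and the printed promoters were added after their values were seen. From each other list the 3 genes with the smallest p are named, apart from some that are not reported here.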

Additional observations from a re-analysis of the deposited data

Results flagged for a closer look

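For 23 of the 34 genes the Dox effect differed between cells with and without A-MYB, by edgeR's interaction test with Benjamini-Hochberg adjustment over all 14664 tested genes. Of these, 21 were below 0 and 2 above, against 24.5% of all tested genes below 0 and 16.4% above. The values below are the Dox effect with A-MYB minus the Dox effect without it, on the log2 scale. No explanation was weighed.

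In the mevalonate steps and at their fork the difference was -1.17 for Hmgcs1 (adjusted p = 2.62e-10), 0.36 for Mvd (adjusted p = 0.00776), -1.03 for Idi1 (adjusted p = 3.59e-06) and -0.38 for Fdps (adjusted p = 0.00275). In the squalene steps it was -0.73 for Sqle (adjusted p = 7.03e-07) and 0.46 for Lss (adjusted p = 0.000486). After lanosterol it was -0.57 for Cyp51 (adjusted p = 2.73e-05), -0.71 for Msmo1 (adjusted p = 2.73e-06), -0.45 for Sc5d (adjusted p = 0.0225) and -0.41 for Dhcr7 (adjusted p = 0.00304).

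In the supply of acetyl-CoA and NADPH it was -0.33 for Acly (adjusted p = 0.00112) and -1.19 for Me1 (adjusted p = 2.08e-09). In chain synthesis it was -0.27 for Acaca (adjusted p = 0.0458), -0.86 for Fasn (adjusted p = 3.20e-08) and -0.66 for Elovl6 (adjusted p = 1.71e-06). The desaturases gave -1.10 for Scd1 (adjusted p = 6.20e-09), -1.50 for Scd2 (adjusted p = 3.38e-11), -0.29 for Fads1 (adjusted p = 0.0463) and -0.46 for Fads2 (adjusted p = 0.00190).

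Among the control genes it was -0.30 for Srebf1 (adjusted p = 0.00958), -0.52 for Srebf2 (adjusted p = 3.79e-05) and -1.05 for Insig1 (adjusted p = 7.33e-08), and it was -1.04 for the sterol carrier Stard4 (adjusted p = 3.38e-07). The calls of Acaca, Fads1, Sc5d and Srebf1 were lost when single libraries were left out and under total counts. Under total counts the calls of Fdps (-0.22, adjusted p = 0.0733), Dhcr7 (-0.25, adjusted p = 0.0698) and Acly (-0.16, adjusted p = 0.0856) were lost as well.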

How the results depend on the processing

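The counts of listed genes that passed moved by less than 1.5 times in the 6 main comparisons. With each library left out in turn they ran from 25 to 29 (Dox without A-MYB), 27 to 30 (Dox with A-MYB), 21 to 26 (A-MYB without Dox), 26 to 29 (A-MYB with Dox), 31 to 32 (both against control) and 19 to 25 (interaction). For Dox against A-MYB, a comparison added after seeing the data, they ran from 8 to 19. The sterol minus fatty acid median kept its sign in all 7 comparisons and moved beyond its SD between libraries only with a library left out. With a library left out it ran from -0.27 to -0.16, 0.13 to 0.25, -0.18 to -0.076, 0.31 to 0.43, 0.064 to 0.12 and 0.23 to 0.37 in the order above, and from -0.15 to -0.096 for Dox against A-MYB. Another scaling shifts both medians alike, so the scalings could hardly move this difference.

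Genes that passed and were lost when a single library was left out numbered 4 for Dox without A-MYB (Pmvk, Scap, Srebf1, Srebf2), 2 for Dox with A-MYB (Hsd17b7, Lss), 7 for A-MYB without Dox (Elovl6, Fads1, Insig1, Pmvk, Srebf1, Srebf2, Tm7sf2), 4 for A-MYB with Dox (Acss2, Sc5d, Scap, Tm7sf2), 0 for both against control and 7 for Dox against A-MYB (Dhcr7, Lss, Me1, Msmo1, Scap, Scd1, Stard4).

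Values that changed sign belonged to genes that had not passed. Under total counts, which moved the all-gene median by over 0.1 in each comparison with Dox + A-MYB cells, they were 0.15 (Pmvk), 0.076 (Ebp) and 0.13 (Acss2) for Dox with A-MYB; 0.047 (Mvk), 0.12 (Pmvk) and 0.044 (Hsd17b7) for A-MYB with Dox; 0.028 (Hsd17b7), 0.13 (Elovl6) and 0.22 (Scap) for both against control; and 0.0017 (Fdft1), 0.056 (Nsdhl), 0.081 (Ebp) and 0.0039 (Scap) for the interaction. With at least 10 counts in every library they were 0.0064 (Pmvk, Dox with A-MYB) and 0.027 (Scap, both against control), and with no filter -0.0083 (Lss, A-MYB with Dox). Leaving out a library gave -0.14 to 0.015 (Ebp) and -0.030 to 0.089 (Tm7sf2) for the interaction, -0.0034 to 0.22 (Hsd17b7, A-MYB without Dox), -0.15 to 0.0016 (Hsd17b7, Dox without A-MYB), -0.042 to 0.050 (Lss) and -0.33 to 0.13 (Pmvk) for A-MYB with Dox, -0.31 to 0.15 (Pmvk, Dox with A-MYB) and -0.088 to 0.0042 (Scap, both against control). The cause was not tested.

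The labels do not say whether the numbers 1 and 2 pair the libraries. Deviations of same-numbered libraries correlated at -0.027 to 0.084, which cannot show whether they shared a day or preparation. With the replicate block, 28, 29, 25, 29, 31 and 24 listed genes passed in the order above. With wild type replicate 2 left out, 1 listed gene had an H3K27ac peak at its start, with a range of 0 to 1 over the libraries left out. With 2 libraries a group, a gene that did not pass is not shown to be without a difference.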

Other observations

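The deposited H3K27ac peak lists come from pachytene spermatocytes of A-myb mutant and wild-type males of 8 to 12 weeks, with 2 libraries each, a cell type other than the ES cells above. A start of a listed gene lay in a peak of both libraries for 0 of 27 genes with an annotated start in A-myb mutant cells and for 0 of 27 in wild-type cells. Of 27025 annotated genes, 67 (0.248%) had such a start in mutant cells and 188 (0.696%) in wild-type cells, so few starts of any gene are in these lists. Single lists, of 21269 to 29042 peaks, held the starts of 0.403% to 1.80% of all genes. With shares this low, 0 of 27 cannot show that these promoters lack the mark in spermatocytes. Lss had a peak at its start in wild type replicate 1 alone, with a fold of 3.94 over background in the authors' list.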
